A study of Mus musculus with 6 samples.

Results

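The genes of glycolysis, fructose bisphosphate turnover and glycogen metabolism were examined in the myocardium of *Clk4*-cKO mice that received either AAV NEXN-WT or AAV NEXN-S437E. The 41 genes were chosen by their place in the pathway, and every probe that the array's annotation assigns to one of them was taken. They carried 94 of the 56605 probes of the array, whose annotation names 27307 genes in all. Of these probes, 69 were tested, since the scanner software marked them well above background throughout 1 group of 3 arrays or both. They covered 38 of the 41 genes.

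The mice were male, of the C57BL/6J strain, and carried *Clk4* fl/fl together with α-MHC-MerCreMer, a tamoxifen-activated Cre that the α-MHC promoter restricts to cardiomyocytes. Tamoxifen was given at 25 mg/kg per day for 5 days at 6 to 8 weeks of age. The vectors were injected at 5 weeks of age and expressed wild-type NEXN or the S437E mutant, in which glutamate replaces a serine to mimic phosphorylation, from a CMV promoter that is not confined to cardiomyocytes. NEXN (nexilin) is an actin-binding protein of the cardiac Z-disc, and CLK4 is the kinase whose gene was deleted in both groups. Each group had 3 animals with 1 array each. Every comparison below is between vectors in hearts with induced deletion of *Clk4* in cardiomyocytes, and no heart with intact *Clk4* was analysed here. The paper reports a large but incomplete loss of *Clk4* mRNA and protein in such hearts.

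Glycolysis splits glucose into pyruvate. Its committed step is the phosphorylation of fructose phosphate to fructose bisphosphate by phosphofructokinase, which fructose bisphosphatase reverses. The bifunctional PFKFB enzymes make and remove a second fructose bisphosphate that activates phosphofructokinase and inhibits fructose bisphosphatase. Glycogen synthase and branching enzyme store glucose as glycogen, and glycogen phosphorylase, switched on by phosphorylase kinase, releases it. The adult heart takes up glucose mainly through GLUT4, runs largely on fatty acids, and expresses muscle forms of many of these enzymes beside the forms found in most tissues.

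Signals are given as log2 intensity minus the 75th percentile of the same array, so that 0 is the array's 75th percentile and 1 unit is a factor of 2. The 75th percentile itself lay between 110 and 273 intensity units. NEXN-WT replicate 1 stood apart: its mean absolute log2 difference from the other arrays was 0.38 to 0.56 over the tested probes, against 0.19 to 0.33 among those 5 arrays. It held the lowest of the 6 values for 49 of the 69 tested glycolysis and glycogen probes (71.0%), against 41.4% of all tested probes. Without it the median log2 fold change over the 69 probes, NEXN-S437E minus NEXN-WT, went from 0.22 to 0.10. All arrays were on 1 slide, NEXN-S437E replicate 1 in slide row 1 with the NEXN-WT arrays and the other 2 NEXN-S437E arrays in slide row 2.

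The study's thresholds of a 2-fold change and an unadjusted p of 0.05 were passed by 3 genes, all higher with NEXN-S437E. They were *Pfkfb1* (4.37-fold), *Fbp2* (2.30-fold) and *Phkg1* (2.07-fold), each measured by 1 tested probe. With normexp background correction or with array weights, *Pfkfb1* was the 1 gene that passed. These 3 probes were 4.35% of the 69, where 2.52% of all 22998 tested probes passed in either direction, 0.735% higher and 1.78% lower. No glycolysis or glycogen probe passed an adjusted p of 0.05 in the limma fit used throughout, which 0.161% of all tested probes passed. The smallest adjusted p was 0.061, for *Pfkfb1*. It was 0.027 when an intensity trend or array weights were added, with which 80 and 668 of all tested probes passed. It was 0.17 and 0.20 without NEXN-S437E replicate 1 or 2, and 0.35 with a t-test. At an unadjusted p under 0.05 there were 8 higher and 2 lower probes, together 14.5% of the 69. This count of 10 was 5 without NEXN-S437E replicate 2 or 3 and 17 without NEXN-WT replicate 3. Of all tested probes 17.2% passed it, 10.5% higher and 6.70% lower. On the deposited log2 values, fitted with the same model and filter, the same 3 genes passed 2-fold with an unadjusted p under 0.05, where 2.63% of all tested probes did.

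**Figure D1:**
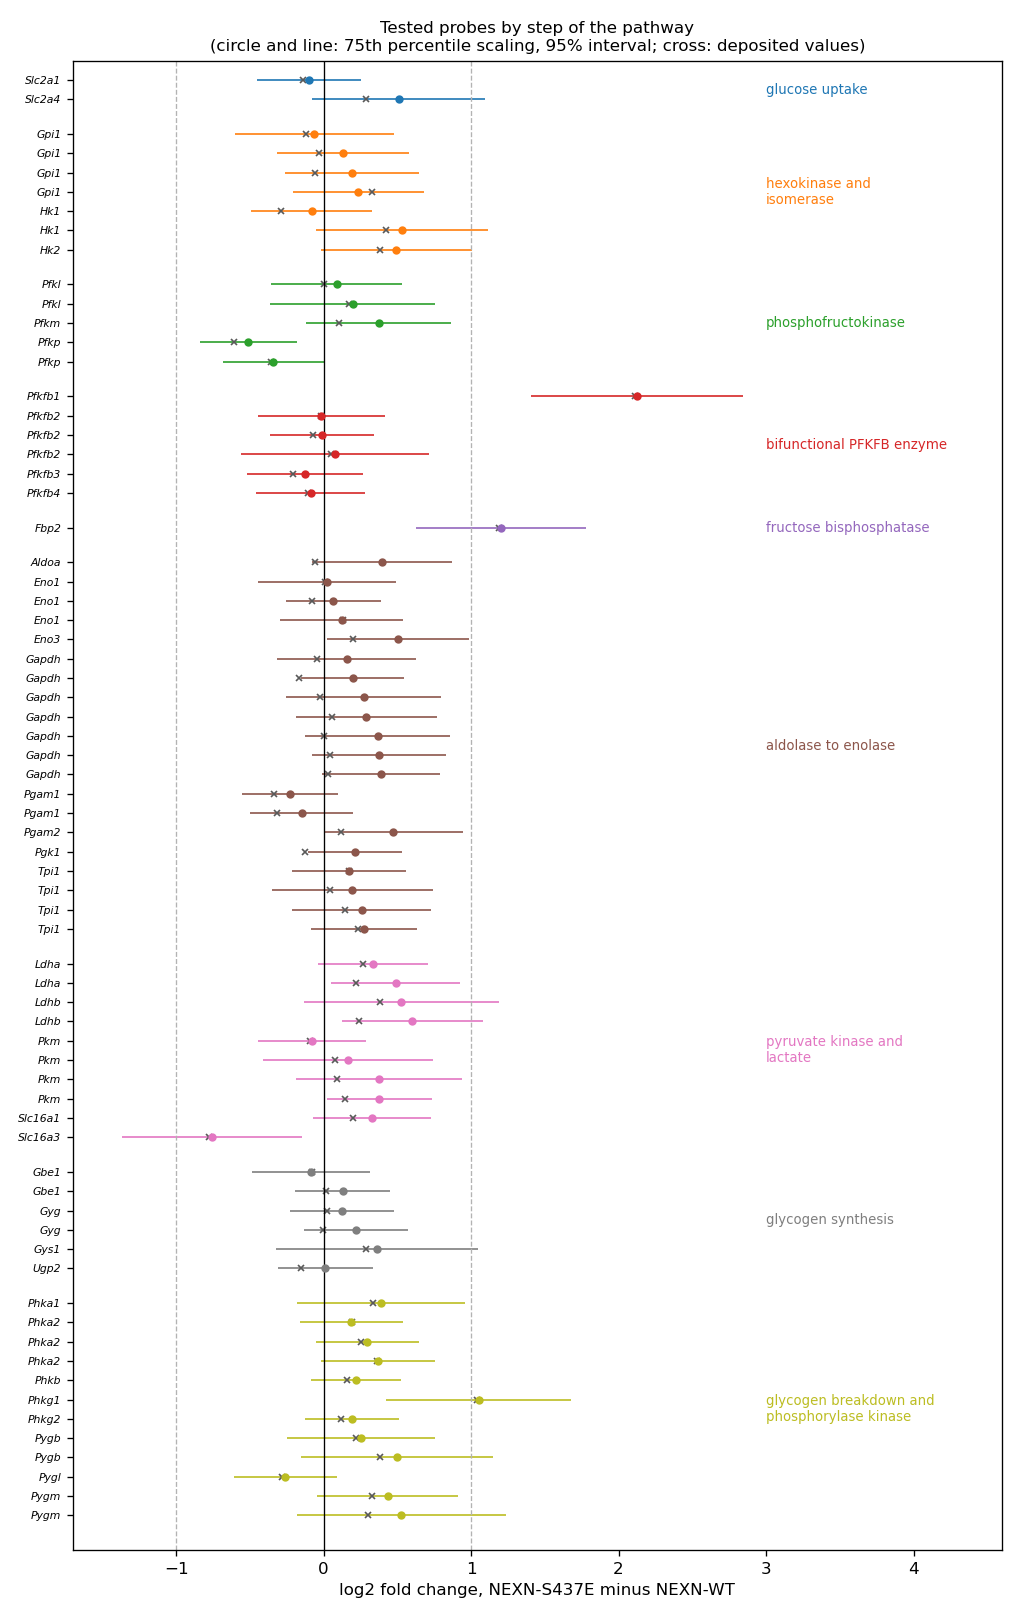
Log2 fold change (NEXN-S437E minus NEXN-WT, horizontal axis) of the 69 tested probes, 1 line a probe, grouped and coloured by step of the pathway. Circles and lines are the estimates and 95% intervals on signals scaled to the 75th percentile, crosses the estimates on the deposited log2 values, and dashed lines mark a 2-fold change. Pfkfb1, Fbp2 and Phkg1 lie beyond the 2-fold line on both scales, Pfkp and Slc16a3 lie below 0 on both, and most of the other circles lie between 0 and 0.6.

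Glucose uptake was measured by 1 tested probe for each transporter. *Slc2a4*, which encodes the insulin-responsive transporter GLUT4, had signals of 5.56, 6.51 and 6.44 in the NEXN-WT arrays and 6.76, 6.66 and 6.63 in the NEXN-S437E arrays. The groups did not overlap, but NEXN-WT replicate 1 lay well below the other 5 arrays, and the log2 fold change of 0.51 (SE 0.25) had an adjusted p of 0.34. It was 0.20 without that array. On the deposited log2 values the groups overlapped, with a difference of 0.28. *Slc2a1*, the basal transporter GLUT1, differed by -0.10 (95% interval -0.45 to 0.25).

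Hexokinase traps glucose in the cell as glucose phosphate, and *Gpi1* encodes the isomerase that turns it into fructose phosphate. None of their 7 tested probes had an unadjusted p under 0.05. The largest difference was at a *Hk1* probe, with signals of 3.44, 3.08 and 2.53 against 3.27, 3.79 and 3.58. These overlapped, and the log2 fold change of 0.53, or 0.29 without NEXN-WT replicate 3, stood beside one of -0.08 at the other tested *Hk1* probe, so the 2 probes of this gene did not point the same way. *Hk2*, the insulin-regulated hexokinase of muscle, differed by 0.49 (95% interval -0.02 to 1.00), or 0.26 without NEXN-WT replicate 1. The 4 *Gpi1* probes ranged from -0.06 to 0.24, of which the highest was fitted without NEXN-WT replicate 2, whose spot was an outlier. Without NEXN-WT replicate 1 they ranged from -0.24 to 0.05.

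The phosphofructokinase isoforms did not share a direction. *Pfkp*, the platelet form found in many non-muscle cells, was lower at both of its tested probes. The probe at chr13:6580589-6580648 (mm9) had signals of 3.57, 3.53 and 3.63 in NEXN-WT and 3.20, 2.93 and 3.06 in NEXN-S437E. The groups did not overlap, and the log2 fold change was -0.51 (SE 0.14, adjusted p = 0.17). The other probe gave -0.34 (adjusted p = 0.29), also without overlap. Its sequence is shown because it crosses an intron, so that it reads spliced RNA: its 60 bases span 2155 bases of mm9, chr13:6581718-6583872 on the minus strand.
Pfkp probe: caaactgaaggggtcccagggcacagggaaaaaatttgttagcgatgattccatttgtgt

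*Pfkm*, the muscle phosphofructokinase, was instead 0.37 higher (95% interval -0.12 to 0.87), with signals of 6.30, 6.99 and 7.04 against 7.09, 7.18 and 7.18. Here too NEXN-WT replicate 1 was the low array, and without it the difference was 0.13. Within each array the difference between *Pfkm* and the brighter *Pfkp* probe was 0.88 higher in the NEXN-S437E hearts and did not overlap between the groups, on either scale. *Pfkl*, the liver form, differed by 0.09 and 0.20 at its 2 tested probes, or by -0.099 and 0.26 without NEXN-WT replicate 1.

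The PFKFB family held the largest difference among all 69 probes. *Pfkfb1* encodes the bifunctional enzyme known from liver and skeletal muscle. Its tested probe (chrX:147078320-147078379, mm9) had signals of -1.69, -0.62 and -1.07 in the NEXN-WT arrays and 1.02, 1.43 and 0.56 in the NEXN-S437E arrays. Before scaling these were intensities of 84.7, 113.7 and 73.5 against 223.5, 431.4 and 208.6, so the groups stood apart also without any scaling. The log2 fold change was 2.13 (95% interval 1.41 to 2.85, adjusted p = 0.061) and 2.11 on the deposited values. In slide row 1 alone, NEXN-S437E replicate 1 lay 2.14 above the mean of the NEXN-WT arrays.

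The array holds a second *Pfkfb1* probe, upstream of the first on the X chromosome (chrX:147056628-147056687, mm9, plus strand). None of the 6 arrays had it well above background, with signals of -6.18, -5.80 and -5.78 against -5.31, -3.75 and -4.52. *Hk1* probe A_55_P2744975, also well above background on no array, read -6.24, -5.87 and -5.84 against -5.37, -5.79 and -5.54. The *Pfkfb1* probe lay above these values on NEXN-S437E replicates 2 and 3 and close to them on the other 4 arrays. No fold change is given. Its sequence is shown because the difference of *Pfkfb1* rests on 1 probe and this is the other place where the gene was read.
Pfkfb1 probe: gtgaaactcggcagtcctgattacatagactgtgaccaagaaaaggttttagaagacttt

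The other members of the family gave no such difference. *Pfkfb2*, the heart form that insulin and adrenaline signalling act on, differed by -0.01, -0.01 and 0.08 at its 3 probes. *Pfkfb3* and *Pfkfb4*, the inducible forms of proliferating and hypoxic cells, differed by -0.13 (95% interval -0.52 to 0.27) and -0.09 (95% interval -0.46 to 0.28). Within each array the difference between *Pfkfb1* and *Pfkfb2* was 2.14 higher in the NEXN-S437E hearts, without overlap.

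**Figure D2:**
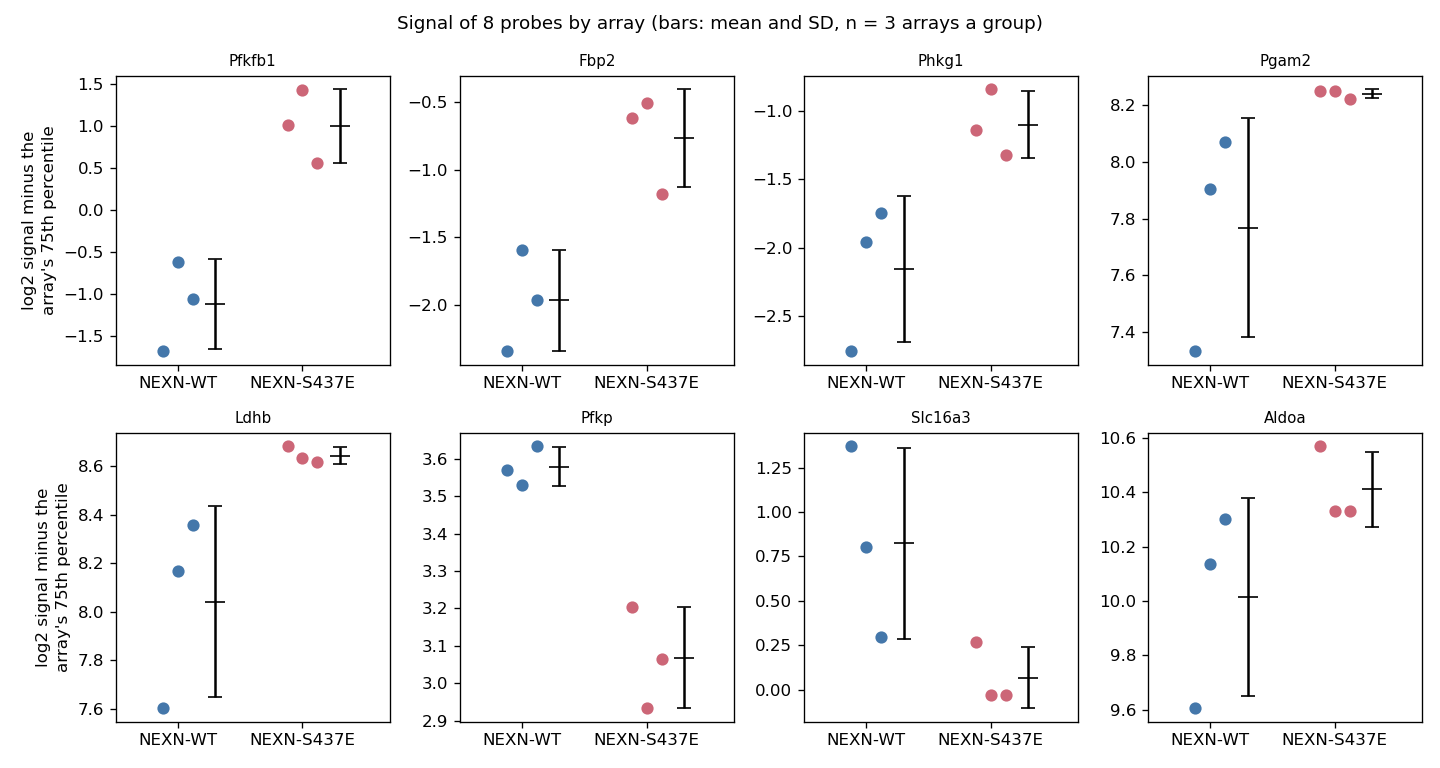
Signal (log2 intensity minus the array's 75th percentile, vertical axes, each panel with its own range) of 8 probes on each array, with the mean and SD of the 3 arrays of a group beside the points. The groups do not overlap in any of these panels, and NEXN-WT replicate 1, the leftmost point, is the lowest array for Pfkfb1, Fbp2, Phkg1, Pgam2, Ldhb and Aldoa.

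Fructose bisphosphatase catalyses the step opposite to phosphofructokinase. *Fbp2*, the muscle form, had signals of -2.34, -1.60 and -1.96 in NEXN-WT and -0.61, -0.50 and -1.18 in NEXN-S437E. The groups did not overlap, and the log2 fold change was 1.20 (95% interval 0.63 to 1.78, adjusted p = 0.11), or 1.19 on the deposited values. NEXN-S437E replicate 1, which shared its slide row with the NEXN-WT arrays, lay 1.35 above their mean. *Fbp1*, the liver form, has 1 probe, well above background on none of the 6 arrays.

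The *Fbp2* probe also crosses an intron, with 60 bases over 4516 bases of mm9 (chr13:62950852-62955367, minus strand). It and the promoter windows of *Fbp2* and *Phkg1* are shown because these genes passed the 2-fold threshold together with *Pfkfb1*. The windows hold the 250 bases before the start in RefSeq on GRCm38.p6, at chr13:62858401-62858650 and chr5:129879089-129879338, both on the minus strand. Capitals mark the E-boxes CACGTG and CAGCTG, of which the first is bound by leucine zipper factors such as USF and the second by myogenic factors such as MyoD. Both read the same on either strand.
Fbp2 probe: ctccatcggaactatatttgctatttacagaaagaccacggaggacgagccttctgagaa
Fbp2 promoter: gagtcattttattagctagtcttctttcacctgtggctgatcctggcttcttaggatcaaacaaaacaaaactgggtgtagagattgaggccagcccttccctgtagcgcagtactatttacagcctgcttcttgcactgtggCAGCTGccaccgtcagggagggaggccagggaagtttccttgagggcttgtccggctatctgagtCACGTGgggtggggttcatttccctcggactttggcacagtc
Phkg1 promoter: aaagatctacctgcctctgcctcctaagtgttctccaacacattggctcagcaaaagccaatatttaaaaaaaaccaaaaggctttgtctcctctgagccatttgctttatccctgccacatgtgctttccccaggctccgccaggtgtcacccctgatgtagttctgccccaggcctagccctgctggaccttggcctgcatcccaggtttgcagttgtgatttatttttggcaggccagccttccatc

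In the *Fbp2* window CACGTG began 42 bases before the start and CAGCTG farther upstream. The *Phkg1* window held neither, and of the 4 windows of *Pfkfb1*, which has 4 starts in RefSeq, 1 held CAGCTG. Windows were found by gene ID for 40 of the 41 genes, 58 windows in all. CACGTG was in 6 of them (10.3%) and in 6.02% of all 32851 windows of this length, and CAGCTG in 10 (17.2%) against 13.0%. The shorter ACGTG, the core that hypoxia-inducible factors bind and which CACGTG contains, was in 22 windows (37.9%) of 18 genes against 16.6% of all windows, searched on both strands. It was present for *Fbp2* and absent for *Phkg1* and *Pfkfb1*. TATAAA was in 1 window, of *Pfkfb1*, against 12.4% of all, and a MEF2 motif in 2, of *Pfkfb1* and *Pgam2*, against 2.92%.

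The steps from aldolase to enolase were read by 20 tested probes of 8 genes, 18 of them higher with NEXN-S437E, where 60.8% of all tested probes were, with a median log2 fold change of 0.24. Without NEXN-WT replicate 1, which was the lowest array for 15 of them, 15 were higher and the median was 0.09. On the deposited values 12 of the 20 were higher (53.2% of all tested probes), the median was 0.02 and 6 probes changed sign. Groups that did not overlap numbered 6 higher and 1 lower on the first scale, where 18.7% and 9.17% of all tested probes did not. They numbered 0 higher and 3 lower on the deposited values, against 13.3% and 11.7%. *Aldoa*, the muscle aldolase, was the brightest of all 69 probes, at 9.60, 10.14 and 10.30 in NEXN-WT and 10.57, 10.33 and 10.33 in NEXN-S437E. It differed by 0.40 (95% interval -0.08 to 0.87) on this scale and by 0.19 without NEXN-WT replicate 1. On the deposited values it held the highest value of the column on 5 arrays and the second highest on NEXN-S437E replicate 1, so that its difference of -0.06 there is fixed by rank. The 7 probes of *Gapdh*, glyceraldehyde phosphate dehydrogenase, differed by 0.16 to 0.39, by -0.17 to 0.06 on the deposited values and by -0.03 to 0.24 without NEXN-WT replicate 1. *Gapdh* has many near-identical copies in the genome, so these probes may read more than 1 locus. The brightest of them had signals of 8.30, 8.57 and 8.66 against 8.71, 8.77 and 8.65, and the next 7.89, 8.42 and 8.66 against 8.80, 8.72 and 8.55, so both overlapped between the groups. Without NEXN-WT replicate 1 their differences of 0.20 and 0.37 were 0.095 and 0.15.

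Of these steps, *Eno3*, the muscle enolase, had the largest difference, with signals of 6.84, 7.55 and 7.49 against 7.80, 7.85 and 7.73. The groups did not overlap, but the log2 fold change of 0.50 (SE 0.21) had an adjusted p of 0.27 and came to 0.20 on the deposited values and 0.27 without NEXN-WT replicate 1. *Pgam2*, the muscle phosphoglycerate mutase, followed with 0.47, which was 0.12 with overlapping groups on the deposited values and 0.25 without NEXN-WT replicate 1. *Pgam1*, the form of most tissues, differed by -0.15 and -0.23 at its 2 probes, and by -0.32 and -0.34, both without overlap, on the deposited values. *Tpi1* (0.17 to 0.28 at 4 probes, the lowest of them fitted without NEXN-WT replicate 1, and -0.05 to 0.19 with that array left out at all 4), *Pgk1* (0.21) and *Eno1* (0.02 to 0.12 at 3 probes) had no probe with an unadjusted p under 0.05.

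Pyruvate kinase and lactate dehydrogenase end the pathway, and monocarboxylate transporters move lactate. *Ldhb*, the heart form of lactate dehydrogenase, had signals of 7.60, 8.17 and 8.36 in NEXN-WT and 8.68, 8.63 and 8.62 in NEXN-S437E, a log2 fold change of 0.60 (SE 0.21, adjusted p = 0.22). Without NEXN-WT replicate 1 it was 0.38, and the other *Ldhb* probe gave 0.53 with overlapping groups, or 0.18 without that array. *Ldha*, the muscle form, was higher by 0.49 and *Pkm* by 0.38 at 1 probe each, with adjusted p of 0.26 and 0.27 in limma. The groups overlapped neither at these 2 probes nor at the first of *Ldhb*, but on the deposited values the differences of *Ldhb*, *Ldha* and *Pkm* were 0.24, 0.22 and 0.15, and without NEXN-WT replicate 1 that of *Ldha* was 0.32. The other *Ldha* probe gave 0.33 without overlap. The other 3 *Pkm* probes differed by -0.08, 0.16 and 0.38 and overlapped. Without NEXN-WT replicate 1 these were -0.0034, -0.092 and 0.19. *Slc16a3*, which encodes the lactate exporter MCT4 of glycolytic cells, moved the other way. Its signals were 1.37, 0.80 and 0.30 in NEXN-WT and 0.27, -0.03 and -0.03 in NEXN-S437E, a log2 fold change of -0.76 (SE 0.26, adjusted p = 0.22) and -0.78 on the deposited values. The lowest NEXN-WT value and the highest NEXN-S437E value nearly met, and without NEXN-WT replicate 3 the probe passed the 2-fold threshold at -1.02, while without NEXN-WT replicate 1 the difference was -0.48. *Slc16a1*, the transporter MCT1 of oxidative cells, differed by 0.33 (95% interval -0.07 to 0.73), or 0.20 without NEXN-WT replicate 1.

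Glycogen synthesis showed no probe with an unadjusted p under 0.05 among 6 tested. The largest difference was at *Gys1*, the muscle glycogen synthase, with signals of 1.81, 2.79 and 2.98 against 3.02, 2.95 and 2.69. Only NEXN-WT replicate 1 was apart there. The log2 fold change was 0.36 (95% interval -0.32 to 1.05) and 0.0014 without that array. Glycogenin (*Gyg*, 0.13 and 0.22), branching enzyme (*Gbe1*, -0.08 and 0.13) and UDP-glucose pyrophosphorylase (*Ugp2*, 0.01) differed by less. Without NEXN-WT replicate 1 these were 0.013 and 0.11, -0.036 and 0.084, and -0.029. On the deposited values *Ugp2* was -0.15, without overlap.

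Glycogen breakdown held the third gene past the 2-fold threshold. *Phkg1* encodes the muscle catalytic subunit of phosphorylase kinase, and its probe (chr5:130340040-130340099, mm9) had signals of -2.76, -1.96 and -1.74 in NEXN-WT and -1.14, -0.84 and -1.32 in NEXN-S437E. The groups did not overlap. The log2 fold change was 1.05 (95% interval 0.42 to 1.68, adjusted p = 0.15) and 1.04 on the deposited values. It rested on single arrays in size: without NEXN-WT replicate 1 it was 0.75 and without NEXN-S437E replicate 2 it was 0.92, both under 2-fold.

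The other subunits of phosphorylase kinase were also higher, by less. All 7 tested probes of the 5 genes had a positive difference, as had 60.8% of all tested probes, with a median of 0.30 and, on the deposited values, 0.25, where the medians over all tested probes were 0.09 and 0.02. In 5 of the 7, a probe each of *Phkb*, *Phkg1* and *Phkg2* and 2 of *Phka2*, the groups did not overlap on either scale, which held for 13.1% of all tested probes in this direction. The 7 are part of the glycogen breakdown step, whose 12 tested probes held 5 higher and 1 lower without overlap on each scale. *Phka2*, the regulatory subunit of liver and other tissues, differed by 0.19 to 0.37 at 3 probes, *Phka1*, its muscle counterpart, by 0.39 (0.10 without NEXN-WT replicate 1, overlapping either way), the shared subunit *Phkb* by 0.22 and the liver and testis catalytic subunit *Phkg2* by 0.19. None of these apart from *Phkg1* had an unadjusted p under 0.05.

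Of the glycogen phosphorylases, *Pygm*, the muscle form, was higher by 0.43 and 0.53 at its 2 tested probes and *Pygb*, the brain form that the heart also expresses, by 0.25 and 0.50. All 4 overlapped between the groups, and without NEXN-WT replicate 1 the differences were 0.24 and 0.18 for *Pygm* and 0.04 and 0.18 for *Pygb*. *Pygl*, the liver form, differed by -0.26 without overlap (95% interval -0.61 to 0.09).

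Related genes were also compared in pairs, since the difference between genes within an array does not depend on how a whole array is scaled. Beside the *Pfkm* and *Pfkp* pair, the within-array difference between *Pgam2* and *Pgam1* was 0.62 higher in NEXN-S437E and that between *Phkg1* and *Phkg2* 0.86 higher, without overlap on either scale. The differences between *Slc2a4* and *Slc2a1* (0.61), *Eno3* and *Eno1* (0.44), *Slc16a1* and *Slc16a3* (1.09) and *Pygm* and *Pygl* (0.79) did not overlap on the main scale but did on the deposited values. Without NEXN-WT replicate 1 these 4 shifts were 0.23, 0.19, 0.68 and 0.36. Those between *Ldhb* and *Ldha* (0.11), *Pygm* and *Pygb* (0.03), *Phka1* and *Phka2* (0.09) and *Pfkm* and *Pfkl* (0.29) overlapped on both. The difference between *Hk2* and the brighter *Hk1* probe (0.57) overlapped on the main scale and not on the deposited values, and against the other *Hk1* probe the shift was -0.04. These shifts are descriptions without a test.

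**Figure D3:**
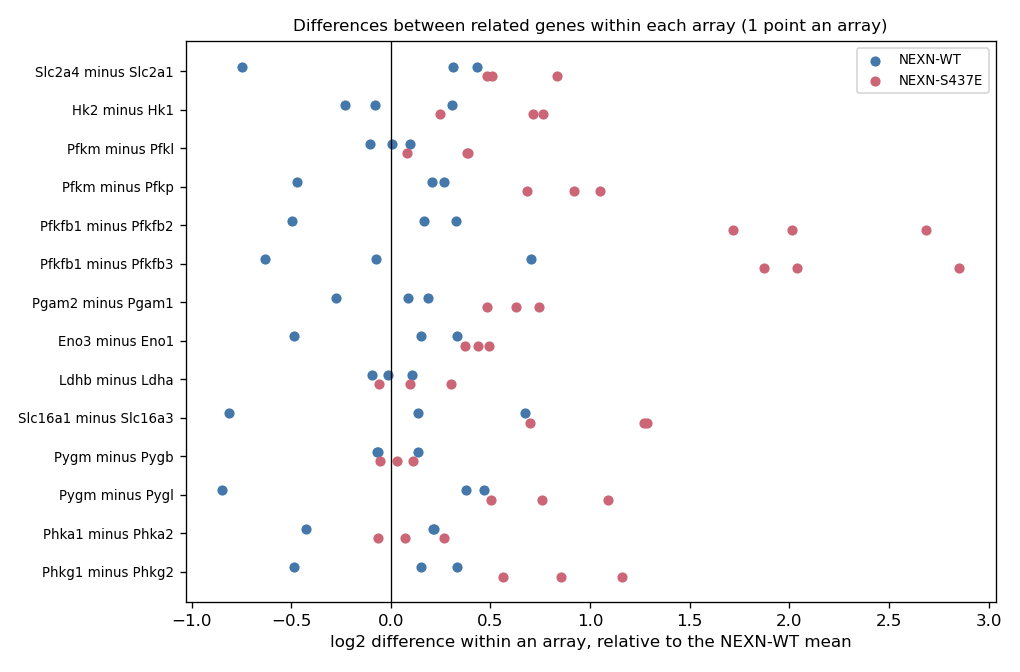
Within-array log2 difference between 14 pairs of related genes, relative to the mean of the NEXN-WT arrays (horizontal axis), 1 point an array. For each gene the tested probe of highest mean signal was used. The NEXN-S437E points lie right of all NEXN-WT points for 9 of the 14 pairs, farthest for Pfkfb1 against Pfkfb2 and Pfkfb3.

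How much of the shift of the bright enzymes was seen depended on the scaling. Over the 69 probes the median log2 fold change was 0.22 with the 75th percentile and 0.06 on the deposited values. Of the 69, 54 were higher on the first scale (78.3%, against 60.8% of all tested probes) and 44 on the second (63.8%, against 53.2%), and 10 probes changed sign. The gap between both scales grew with signal, and 44 of the 69 probes lay among the brightest 5750 of all tested probes, whose median was 0.19 on the first scale and 0.03 on the second.

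**Figure D4:**
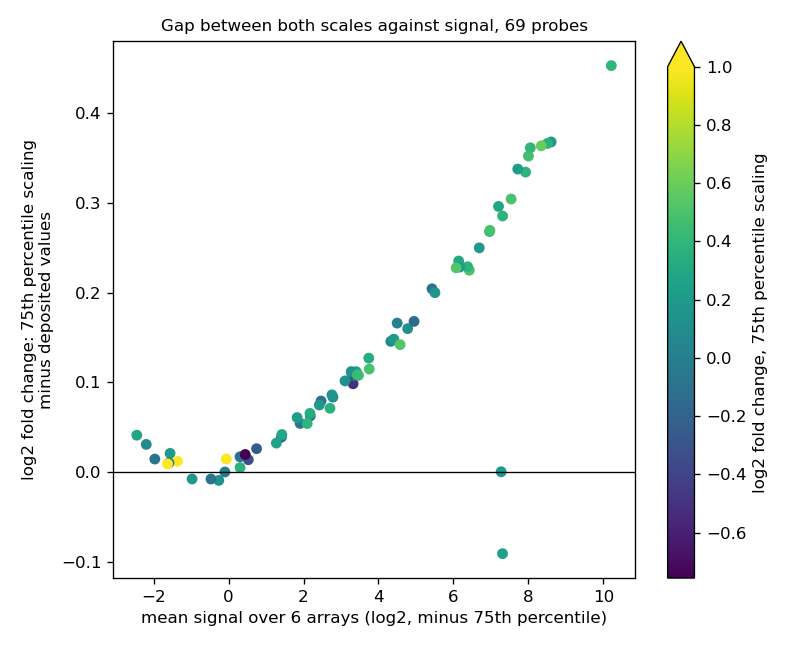
Difference between the log2 fold change on the 75th percentile scale and on the deposited values (vertical axis) against mean signal (log2, minus the 75th percentile, horizontal axis) for the 69 tested probes, coloured by log2 fold change. The gap is near 0 for dim probes, which include Pfkfb1, Fbp2 and Phkg1, and is largest at Aldoa, whose deposited values are fixed by rank. The 2 points off the trend are the Gpi1 and Tpi1 probes for which 1 array was left out of the first fit.

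Groups that did not overlap were counted the same way. On the 75th percentile scale there were 21 such probes higher with NEXN-S437E (30.4%, against 18.7% of all tested probes) and 5 lower (7.25%, against 9.17%). On the deposited values there were 9 higher (13.0%, against 13.3%) and 9 lower (13.0%, against 11.7%). On both scales at once 9 probes were higher (13.0%, against 13.1%), the 5 of phosphorylase kinase and those of *Pfkfb1*, *Fbp2*, *Ldha* and *Ldhb*, and 5 were lower (7.25%, against 9.07%), both *Pfkp* probes and those of *Slc16a3*, *Pygl* and *Pgam1*.

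The neighbouring genes of glucose metabolism and its regulators were read by 84 tested probes of 57 genes out of 65. Of these probes 1 passed the 2-fold threshold, which 2.52% of all tested probes did. *Slc2a12*, an insulin-sensitive glucose transporter, passed at 1 of 3 probes, with -2.24, -0.75 and -1.08 against -0.04, -0.61 and -0.34. Its log2 fold change was 1.03 (adjusted p = 0.23), a second tested probe gave 0.04, and without NEXN-WT replicate 1 or NEXN-S437E replicate 1 the first fell below the threshold, at 0.59 and 0.88. At an unadjusted p under 0.05 the 84 probes held 10 higher and 2 lower, against 10.5% and 6.70% of all tested probes. *Eno2*, the neuronal enolase, was well above background on all NEXN-WT arrays, through which alone it entered the test, and on none of NEXN-S437E. It was at least 1.78-fold lower, measured against the lowest signal well above background on each array (adjusted p = 0.12). It was followed by a probe of *Slc16a7*, a pyruvate and lactate transporter (0.68, adjusted p = 0.21). Next came a minus-strand probe that the annotation assigns to *Hif1a*, the hypoxia-inducible factor (0.77, adjusted p = 0.21). The other tested *Hif1a* probe lies on the plus strand and gave -0.38. Being on opposite strands, these probes need not read the same RNA, so 0.77 cannot be taken as a change of *Hif1a* mRNA.

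Markers of cardiac cell types were read on the same arrays, and in whole myocardium fewer cells of a type and less RNA per cell cannot be told apart. All 13 tested probes of 8 cardiomyocyte genes, among them *Myh6*, *Tnnt2* and *Tnni3*, were higher, by 0.15 to 0.76 (7 with an unadjusted p under 0.05), and by -0.17 to 0.71 on the deposited values. Without NEXN-WT replicate 1 the range was 0.0054 to 0.57. Their summed level, in units of the array's 75th percentile, was 2085, 2668 and 2704 in NEXN-WT and 3265 to 3383 in NEXN-S437E. All 11 tested probes of 7 fibroblast genes (17 probes in all), among them *Col1a1* and *Pdgfra*, were lower (-2.14 to -0.08, 9 with an unadjusted p under 0.05), or -1.67 to -0.09 without NEXN-WT replicate 1, with sums of 661 to 1029 against 462 to 496. Their part in the differences of the 69 glycolysis and glycogen probes, in either direction, was not tested.

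Of 6 tested T cell probes (10 in all) 5 were lower, 4 with an unadjusted p under 0.05. Their sum was 2.54 to 3.47 in NEXN-WT and 1.29 to 1.51 in NEXN-S437E. A *Cd3d* probe and the *Cd3g* probe, both among those 4, were well above background on no NEXN-S437E array, and a *Cd3e* probe on 1. These entered the test through NEXN-WT alone. The *Cd3d* probe was at least 4.59-fold and the *Cd3g* probe at least 2.18-fold lower. The 1 tested B and plasma cell probe, of *Jchain*, was well above background on no NEXN-S437E array and at least 4.13-fold lower there (summed level 0.36 to 0.52 against 0.021 to 0.038). Both tested atrial probes, of *Myl4*, differed by -0.54 and -0.62 (summed level 3.78 to 5.67 against 2.46 to 3.48). Endothelial, smooth muscle and pericyte, macrophage, neutrophil, erythrocyte and adipocyte probes held none with an unadjusted p under 0.05, and their ranges of summed level overlapped between the groups. NEXN-S437E replicate 1, the 1 array of its group in slide row 1, stood apart in blood markers. Its erythrocyte sum was 436, against 40.7 to 157 on the other arrays, and its neutrophil sum 4.33, against 0.65 to 1.88.

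Markers of liver and skeletal muscle, tissues that express *Pfkfb1* or *Fbp2*, were read in the same way. Of 9 probes for 5 liver genes only 1, of *Serpina1a*, was tested (0.55, overlapping), with sums of 0.18 to 0.75 against 0.38 to 0.53. The probes of *Apoa1*, *Ttr* and *Cyp2e1* were well above background on none of the arrays, and 1 of the 2 *Alb* probes was so on 1 array of each group. Of 15 probes for 8 skeletal muscle genes 5 were tested and 3 were higher. Their sum was 3.30 to 3.68 in NEXN-WT and 2.96 to 3.93 in NEXN-S437E, those of *Myh1* and *Actn3* were well above background on none of the arrays, and those with an unadjusted p under 0.05 were of *Myh4* (0.82 higher) and *Tnnt3*, which was well above background on no NEXN-S437E array and at least 1.64-fold lower there.

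The 25 probes that were not tested comprised 18 that were well above background on none of the arrays and 7 that were so on 1 to 3 arrays. They include all probes of *Fbp1*, of *Aldoc*, the brain aldolase, and of *Pgm1*. The gene that the array's annotation calls *Pgm1* is named *Pgm2* in current RefSeq, and the gene it calls *Pgm2*, the main phosphoglucomutase, was tested among the neighbouring genes and differed by 0.13 (adjusted p = 0.74).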

How the data were processed

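Total RNA of 6 myocardia was hybridised to Agilent 1-colour arrays with Cy3. The authors deposited each array's background-subtracted intensities from Feature Extraction 10.7.1.1 (per the submitters' processing notes), with no normalization between arrays, and normalized log2 values in a table where each column has the same distribution. The sources used here do not name that normalization. Probe coordinates are on mm9. No genome or annotation of that build was used, so probes were not placed in exons or UTRs.

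From the intensities, control and outlier spots were left out, log2 values were reduced by each array's 75th percentile over all probes and spots of a probe were averaged. Under 50% of spots were well above background (41.9% to 47.8%), and no spot for these genes was saturated. Probes that stood well above background in every array of 1 group or both (3 arrays each) were compared with limma 3.58.1 (lmFit, eBayes) in R 4.3.3, with Benjamini-Hochberg adjustment over 22998 probes. A probe counted as changed past 2-fold with an unadjusted p under 0.05. With 3 arrays a group, their number limits the precision. Where a group was well above background on no array, a fold is given as a bound.

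The genes, lists and tests were chosen with earlier results of these data known, and the promoter motifs after the windows were read. Values by array are given for probes past a threshold, the largest difference of each step and the 3 brightest probes. Those of *Pfkp*, *Pfkm* and *Ldhb* were added after their values were seen. The counts over the neighbouring genes leave out 1 gene that is not reported here. Alternatives changed the scaling, background correction, filter, test, blocks and arrays used. The fit was checked on simulated data before use.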

Additional observations from a re-analysis of the deposited data

How the results depend on the processing

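The number of probes of the 41 genes past 2-fold and an unadjusted p of 0.05, 3 in the report, was 1 with normexp background correction and with array weights (*Pfkfb1* in both), 5 at a 1.5-fold threshold, 3 with the replicate block 2 with the percentile over detected probes (without *Phkg1*) and 2 to 4 when 1 array was left out. The number past an adjusted p of 0.05 was 1 (*Pfkfb1*) with an intensity trend and with array weights and 0 otherwise, also with the methods' t-test. The adjusted p of *Pfkfb1* ranged from 0.027 to 0.35 over the alternatives. Probes without overlap numbered 16 (23.2%, against 25% of all tested probes) after quantile normalization, 41 (59.4% against 49.5%) with slide row as a block and 27 to 40 (39.1% to 58% against 33.7% to 43.6%) when 1 array was left out, compared with 26 (37.7% against 27.9%). The share over all tested probes was also higher when 1 array was left out and with either block. Array weights leave these values as they are. Neighbouring probes past 2-fold numbered 0 with normexp correction, the t-test and array weights, 2 with quantile normalization, the authors' values and slide row as a block, 6 with no filter on dim probes and 0 to 3 when 1 array was left out, against 1.

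The median over the 69 probes ranged from 0.06 on the deposited values to 0.32 with slide row as a block, was 0.10 without NEXN-WT replicate 1 and reached 0.29 without NEXN-WT replicate 3. *Aldoa* turned to -0.057 and the brightest *Gapdh* probe to -0.13 after quantile normalization, and to -0.057 and -0.17 on the deposited values. Of 306 refits of named probes, 288 kept direction and side of the thresholds. Most of these probes passed no threshold in the main fit, so this count says little of the size of their differences. *Gys1* kept both in all 18 refits while it ran from 0.0014 to 0.59. *Aldoa* ranked first on 5 arrays and second on the other, so its quantile-scaled difference is fixed by rank and says nothing of its level. The cause of the other changes was not tested. Deviations of same-numbered arrays correlated at -0.15, -0.03 and -0.18, and those of unlike-numbered arrays at -0.07 to 0.18. They gave no sign of pairing by replicate number, but with 3 arrays a group they cannot show that the samples are unpaired. The replicate block changed no call.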
